A study of Mus musculus with 6 samples.

Results

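The epidermal kallikreins and their main regulators were followed in the skin of mice treated with rIL-31. The set holds 10 genes, taken by name: the kallikreins Klk5, Klk6, Klk7, Klk8, Klk10, Klk11, Klk13 and Klk14, the inhibitor gene Spink5 and the matriptase gene St14. All 10 were among the 24061 genes of the count table, and all 10 had enough counts to be among the 16371 tested. The rIL-31 group was 3 samples of dorsal skin from C57BL/6 mice that received 20 μg of purified recombinant IL-31 (rIL-31) in 50 μl of saline by the intradermal route each day, and the saline group was 3 samples from C57BL/6 mice that received saline alone in the same volume. Skin was taken at Day 14, and the study's methods give female mice of 8 to 14 weeks. The labels give no transgene or deletion for either group.

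Epidermal kallikreins are secreted serine proteases made in skin mainly by keratinocytes of the upper epidermis. They are released as inactive precursors, are activated by trimming of a short peptide, and cut the junctions that hold corneocytes together, so that the outermost cells can be shed. From work on the human proteins, Klk5 is known to activate itself and then Klk7 and Klk14, matriptase (St14) can activate the Klk5 precursor, and the multidomain inhibitor encoded by Spink5 (LEKTI) holds Klk5, Klk7 and Klk14 in check. Loss of SPINK5 in humans causes Netherton syndrome, in which the barrier fails, and kallikrein activity is known to be raised in atopic dermatitis.

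Total counts ranged from 23122953 to 25552684 in the rIL-31 libraries and from 21710679 to 23963685 in the saline libraries. The rIL-31 libraries did not share one trend with GC content. Over 15429 genes whose GC content was known, each library's level was compared with the average library, and the Spearman correlation of that difference with GC was 0.381 for rIL-31 replicate 1, 0.271 for replicate 2 and -0.249 for replicate 3, against -0.115, -0.202 and -0.237 for the saline replicates. These correlations are across genes, which share the library and are not independent replicates. Replicates 1 and 2 of the rIL-31 group thus stood apart from the other 4 libraries, and replicate 3 lay with saline. Leaving out replicate 3 keeps both GC-shifted libraries, so the 10 genes are given with all libraries, without replicate 3 and, where it moves them, with offsets for GC content and transcript length. The GC content of the longest transcript of the 10 genes lay between 41.0% (Spink5) and 56.96% (Klk8). Levels are given as normalized CPM, which are counts scaled to a common library size with TMM factors (trimmed mean of M values). The words rose and fell are used where edgeR's quasi-likelihood test gave a Benjamini-Hochberg false discovery rate (FDR) below 0.1 over all genes tested. Skin keratinocyte genes were abundant in every library, with Krt14 between 2696 and 4564 CPM in rIL-31 skin and between 1724 and 1963 CPM in saline skin. The study's methods give 3 skin tissue samples per group, but nothing in the labels states that each numbered sample was its own mouse. The test behind the FDR therefore rests on the spread between these samples, which may be technical.

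The kallikreins of these mice lie side by side on chromosome 7 (GRCm38, the assembly named mm10), from Klk14 at 43680880 to Klk1 at 44229622, as annotated by RefSeq. Of the 27 kallikrein genes and pseudogenes of this cluster in the count table, 10 had enough counts to be tested, and these were the 10 adjacent genes from Klk14 to Klk5. The neighbours beyond Klk5 were near 0 in skin. Klk4 had 2 counts and Klk15 had 32 counts over the 6 libraries together, and the 15 genes and pseudogenes of the Klk1 and Klk1b group had 14 counts in all, with no count for 12 of them. The Klk1b genes are close copies of each other, so their few reads cannot be assigned with certainty. Only Klk9 and Klk12 lie within the tested block without belonging to the set.

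**Figure D1:**
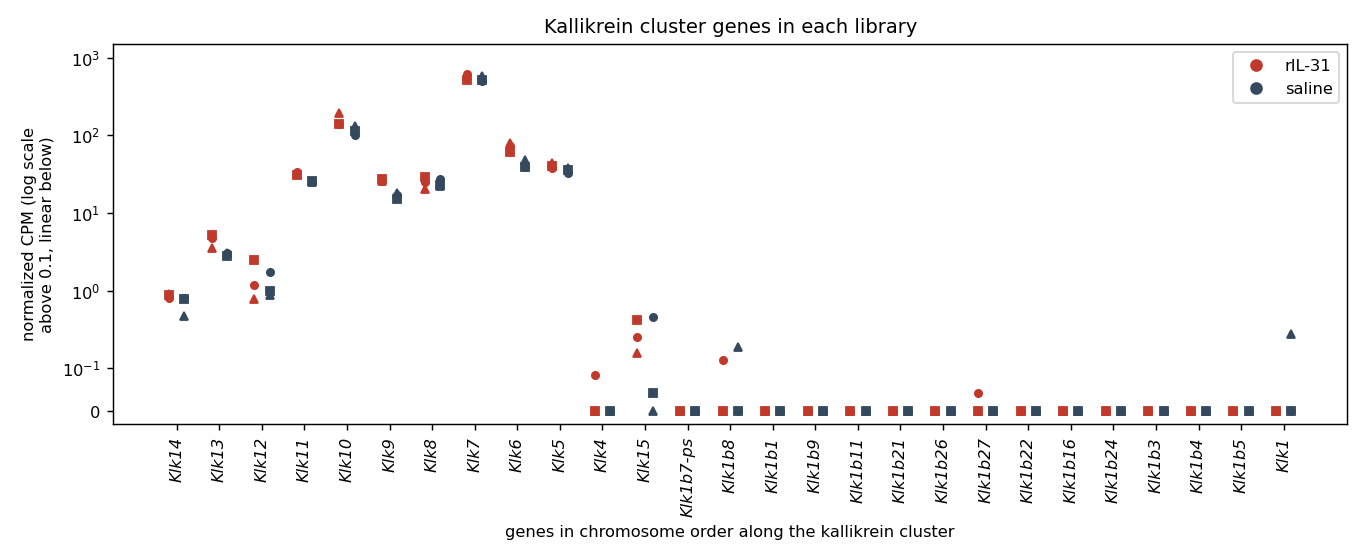
Normalized CPM (y axis, log scale above 0.1 CPM and linear below) of each kallikrein gene of the cluster, in chromosome order on the x axis, in the 3 rIL-31 libraries (red, left) and the 3 saline libraries (dark, right); circles, squares and triangles are replicates 1, 2 and 3. The 10 genes from Klk14 to Klk5 carry nearly all counts, and Klk4, Klk15, Klk1 and the Klk1b genes lie at or close to 0.

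In the set, Klk6 alone passed the test and was higher in rIL-31 skin, and among the neighbours of the cluster Klk9 was also higher. The promoter windows of these genes are shown here because Klk6 and Klk9 are the cluster genes that rose, Klk10 was next by FDR, and Klk7, the most abundant, did not pass. Each window is 300 bases from RefSeq on GRCm38.p6, from 250 bases before to 50 after an annotated start, and Klk6 has a pair of starts. Capitals mark matches to any of 4 motifs searched on both strands, the TATA box (TATAAA), the AP-1 motif (TGANTCA), the STAT motif (TTCNNNGAA) and the GC box (GGGCGG).
Klk6 upstream start, chr7:43824294-43824593, plus strand: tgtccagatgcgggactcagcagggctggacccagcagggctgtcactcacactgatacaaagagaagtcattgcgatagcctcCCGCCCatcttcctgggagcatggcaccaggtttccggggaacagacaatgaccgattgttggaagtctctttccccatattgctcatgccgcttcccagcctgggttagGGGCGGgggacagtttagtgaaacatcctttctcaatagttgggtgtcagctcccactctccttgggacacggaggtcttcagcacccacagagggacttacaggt
Klk6 downstream start, chr7:43825200-43825499, plus strand: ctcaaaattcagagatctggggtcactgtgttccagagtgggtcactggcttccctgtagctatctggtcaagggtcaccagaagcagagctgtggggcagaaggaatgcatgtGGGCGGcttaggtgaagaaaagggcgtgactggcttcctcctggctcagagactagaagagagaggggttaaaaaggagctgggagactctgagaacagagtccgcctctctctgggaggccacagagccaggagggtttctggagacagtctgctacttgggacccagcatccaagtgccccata
Klk9, chr7:43791641-43791940, plus strand: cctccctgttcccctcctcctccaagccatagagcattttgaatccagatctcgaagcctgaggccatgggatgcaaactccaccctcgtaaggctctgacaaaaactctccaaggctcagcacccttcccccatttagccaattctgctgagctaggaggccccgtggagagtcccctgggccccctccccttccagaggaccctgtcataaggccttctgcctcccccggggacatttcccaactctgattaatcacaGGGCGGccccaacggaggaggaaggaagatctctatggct
Klk10, chr7:43780804-43781103, plus strand: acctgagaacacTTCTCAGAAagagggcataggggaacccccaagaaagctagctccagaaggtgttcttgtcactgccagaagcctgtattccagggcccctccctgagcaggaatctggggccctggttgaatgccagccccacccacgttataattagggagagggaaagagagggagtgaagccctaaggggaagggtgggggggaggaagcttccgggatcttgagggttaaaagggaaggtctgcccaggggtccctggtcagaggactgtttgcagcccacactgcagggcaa
Klk7, chr7:43811044-43811343, plus strand: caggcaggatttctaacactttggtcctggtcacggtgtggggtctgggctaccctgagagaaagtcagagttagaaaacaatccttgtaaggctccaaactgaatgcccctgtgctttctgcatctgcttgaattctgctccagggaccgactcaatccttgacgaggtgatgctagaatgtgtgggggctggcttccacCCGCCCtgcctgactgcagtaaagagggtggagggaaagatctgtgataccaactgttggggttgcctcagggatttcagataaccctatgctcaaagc
Both Klk6 windows and the Klk7, Klk8 and Klk9 windows held a GC box, which 35.7% of all 32851 windows of this length held. Upstream of Klk6, GC boxes began 166 and 56 bases before the first start and 136 bases before the downstream start. The STAT motif was found only in the Klk10 window, 238 bases before the start, as ttctcagaa, and 8.3% of all windows held one. No AP-1 or TATA match was found in the 10 windows of the kallikreins of the set, against 7.81% and 13.6% of all windows. None of the 4 motifs overlapped another in these windows. A match here describes letters in the window and not binding. Spink5 and St14 had no window in the table.

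Klk6, a trypsin-like kallikrein also known as neurosin, was the member that rose. Its level was 72.2, 60.7 and 79.0 CPM in rIL-31 skin, against 39.4, 38.7 and 47.9 CPM in saline skin. Every rIL-31 library lay above every saline library, and the lowest rIL-31 value was in replicate 2. The means were 70.6 ± 9.26 CPM in rIL-31 skin and 42.0 ± 5.10 CPM in saline skin (SD, n = 3 each). The fold change was 1.68 (95% confidence interval 1.36 to 2.07), or 0.75 on the log2 scale (standard error, SE, 0.14, FDR 0.0112 in edgeR's quasi-likelihood test). Its fold change was under the 2-fold minimum that the study's methods also required. Whole skin was sequenced, so more cells of a type and more RNA per cell cannot be told apart here. It kept an FDR below 0.1 in all 16 alternative fits, with log2 fold changes from 0.63 to 0.85 and FDRs up to 0.0973, the last without saline replicate 2. Leaving out rIL-31 replicate 3, its log2 fold change was 0.66 (FDR 0.00610), and with offsets for GC content and transcript length it was 0.64 (FDR 0.0131).

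Over all genes, 739 rose (4.51%) and 610 fell (3.73%), 8.24% of those tested together. Of the 10 genes of the set, 1 rose and 0 fell, which is near the background share. At an unadjusted p below 0.05 in the same test, 3 genes of the set were higher (Klk6, Klk10 and Klk11) and 0 were lower, against 19.5% of all genes in either direction. At an FDR below 0.05, 1 gene of the set was higher (Klk6), against 4.91% of all genes in either direction, and with a 2-fold minimum added to the FDR below 0.1 the count was 0, against 1.84%. With DESeq2, 2 were higher (Klk6 and Klk10) and 0 lower, beside 1029 higher and 924 lower of all 16371 genes tested. All 10 fitted log2 fold changes were above 0, as were 51.1% of all genes, although those of Klk8, Spink5 and St14 changed sign in some alternative fits. The median log2 fold change was 0.27 over the 10 genes and 0.33 over the 8 kallikreins, against 0.0077 over all genes tested. With the offsets for GC content and length, the log2 fold change of each of these kallikreins was lower. Those of Spink5 (0.14) and St14 (0.12) were higher with the offsets than without. The rIL-31 libraries lay above all saline libraries for 6 of the 10 genes, where 12.8% of all genes did so.

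**Figure D2:**
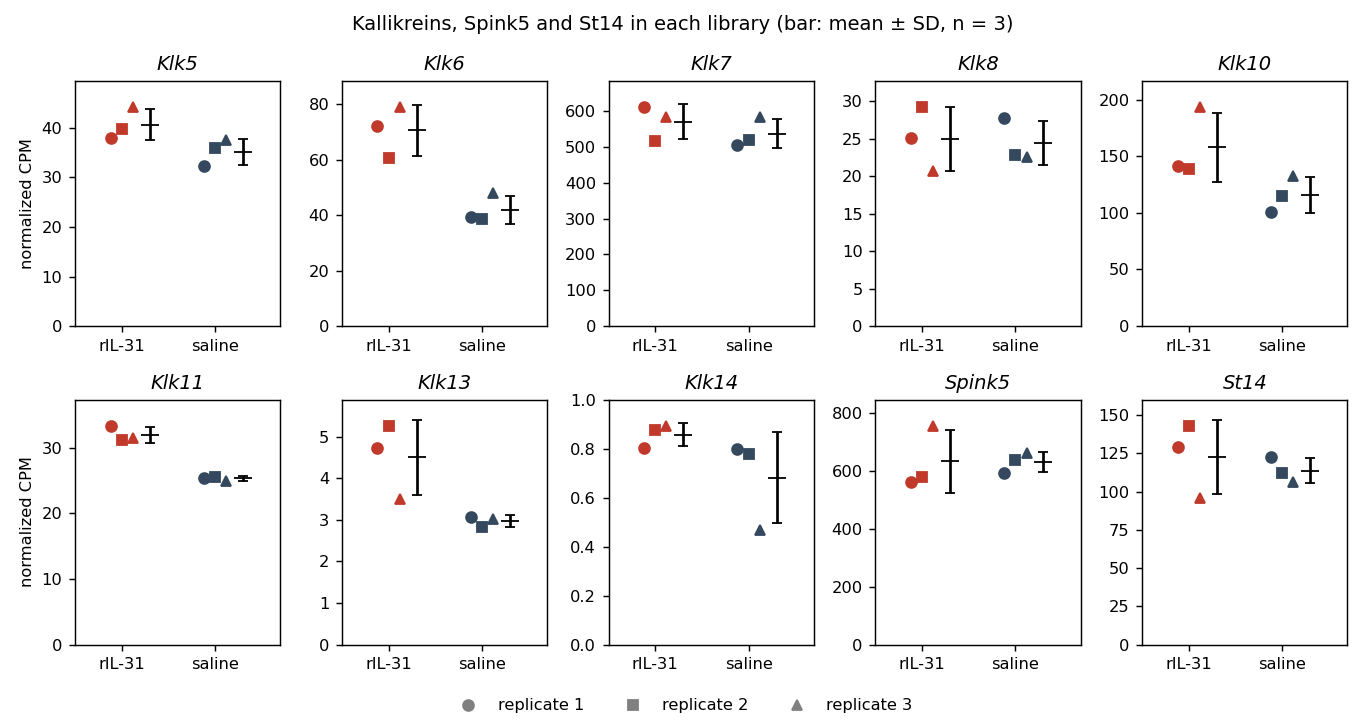
Normalized CPM (y axes, each from 0) of the 10 genes in the rIL-31 libraries (red, left) and saline libraries (dark, right), with a symbol for each replicate and the mean ± SD beside it (n = 3). Klk6 lies apart, with 60.7 CPM as the lowest rIL-31 value and 47.9 CPM as the highest saline value, while Klk7, Klk8, Spink5 and St14 overlap.

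The activation cascade itself, Klk5, Klk7 and Klk14 with St14, did not pass the test. Klk5, the protease at its start, had 38.1, 39.8 and 44.2 CPM in rIL-31 skin, against 32.4, 35.9 and 37.5 CPM in saline skin. The groups did not overlap, but the gap between the lowest rIL-31 and the highest saline library was under 1 CPM. Its log2 fold change was 0.21 (SE 0.12, 95% confidence interval -0.061 to 0.48, FDR 0.388), 0.14 without rIL-31 replicate 3 (FDR 0.454) and 0.092 with the offsets (FDR 0.721). Klk7, the chymotrypsin-like protease first described in the stratum corneum, had 611, 517 and 584 CPM in rIL-31 skin, against 506, 521 and 583 CPM in saline skin. The groups overlapped over most of their range, and the log2 fold change was 0.089 (SE 0.11, interval -0.15 to 0.33, FDR 0.711). The interval for Klk7 leaves room for a fold change from 0.902 to 1.26, so a rise of the size seen for Klk6 lies outside it. It was 0.070 on the log2 scale without rIL-31 replicate 3 (FDR 0.699) and 0.024 with the offsets (FDR 0.924).
Klk14, a trypsin-like kallikrein that acts on the same junction proteins, was scarce, with 19, 21 and 23 counts in rIL-31 skin, against 19, 18 and 10 counts in saline skin. These are 0.804, 0.878 and 0.894 CPM against 0.798, 0.781 and 0.466 CPM, and the lowest rIL-31 library was just above the highest saline library. Its log2 fold change of 0.33 had a 95% confidence interval from -0.86 to 1.51 (FDR 0.797), so a rise of 2-fold lay within the interval, and it was 0.30 without rIL-31 replicate 3 (FDR 0.814). Different exons annotated to the antisense transcript 2310002F09Rik overlap Klk14, by up to 287 bases, and Klk8, by up to 382 bases. That transcript had 44 counts over the 6 libraries, and no source used here states whether counting used strand, so reads of these pairs may not be separable.
St14, the membrane-bound matriptase, lies on chromosome 9 from 31088590 to 31131811. It had 129, 143 and 95.9 CPM in rIL-31 skin, against 123, 112 and 106 CPM in saline skin. The rIL-31 libraries lay on both sides of the saline range, with replicate 3 lowest of all 6. The log2 fold change was 0.11 (SE 0.15, interval -0.21 to 0.43, FDR 0.742), and without rIL-31 replicate 3 it was 0.26 (FDR 0.103).

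Spink5, whose product inhibits this cascade, lies on chromosome 18 from 43959545 to 44022487 and had nearly equal means in the groups, 633 ± 107 CPM in rIL-31 skin and 632 ± 34.8 CPM in saline skin (SD, n = 3 each). Its levels were 561, 581 and 756 CPM in rIL-31 skin, against 594, 638 and 663 CPM in saline skin. Replicates 1 and 2 of the rIL-31 group lay below every saline library and replicate 3 lay above all of them. The log2 fold change was 0.0018 (SE 0.13, 95% confidence interval -0.28 to 0.28, FDR 0.996). Without rIL-31 replicate 3 it was -0.15 (FDR 0.296), and with the offsets for GC content and length 0.14 (FDR 0.434). A change larger than the fold range of 0.824 to 1.22 lies outside the interval with all libraries.

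The remaining kallikreins, Klk8, Klk10, Klk11 and Klk13, differed among themselves. Klk10 had 142, 139 and 194 CPM in rIL-31 skin, against 101, 115 and 132 CPM in saline skin. The groups lay apart, and rIL-31 replicate 3 was well above the other libraries. The log2 fold change was 0.45 (SE 0.15, FDR 0.131), and it passed with DESeq2 (0.44, FDR 0.0714) and with edgeR's exact test and RLE normalization (0.44, FDR 0.0869). It was 0.27 without rIL-31 replicate 3 (FDR 0.130), and 0.33 with the offsets (FDR 0.278).
Klk11, a trypsin-like kallikrein also called hippostasin, had 33.4, 31.1 and 31.5 CPM in rIL-31 skin, against 25.4, 25.6 and 24.9 CPM in saline skin. The means were 32.0 ± 1.20 CPM in rIL-31 skin and 25.3 ± 0.334 CPM in saline skin (SD, n = 3 each), and the groups lay apart. The log2 fold change was 0.34 (SE 0.12, FDR 0.135), 0.35 without rIL-31 replicate 3 (FDR 0.0712) and 0.22 with the offsets (FDR 0.302).
Klk13 had 4.74, 5.27 and 3.50 CPM in rIL-31 skin, against 3.07, 2.82 and 3.03 CPM in saline skin, from 65 to 126 counts per library. Its log2 fold change of 0.60 (SE 0.27, 95% confidence interval -0.010 to 1.20, FDR 0.264) was second in size in the set, with a wider interval than that of Klk6. It was 0.75 (FDR 0.0969) without rIL-31 replicate 3, its lowest rIL-31 library. Klk8, known as neuropsin for its role in the brain, had 25.1, 29.2 and 20.7 CPM in rIL-31 skin, against 27.8, 22.8 and 22.5 CPM in saline skin. The groups overlapped, and the log2 fold change was 0.035 (SE 0.16, interval -0.32 to 0.39, FDR 0.934), 0.15 without rIL-31 replicate 3 (FDR 0.514) and -0.095 with the offsets (FDR 0.7997).
In the fit without rIL-31 replicate 3, 3 genes of the set rose (Klk6, Klk11 and Klk13), and 0 fell, while 12.3% of all genes rose and 11.8% fell in that fit.

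**Figure D3:**
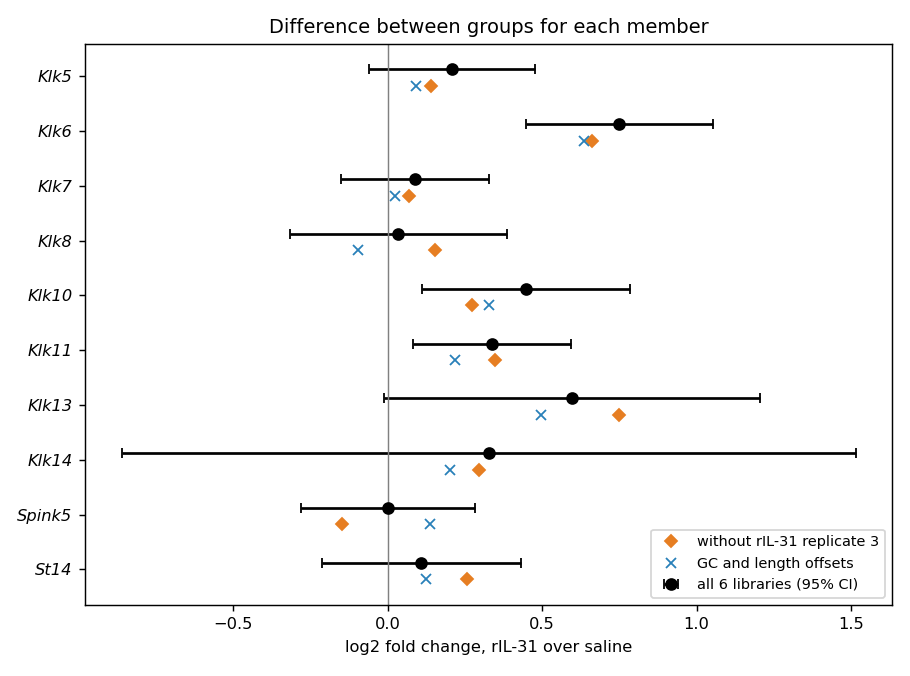
Log2 fold change of rIL-31 over saline (x axis) for each of the 10 genes, with black points and bars for all 6 libraries with 95% confidence intervals, diamonds for the fit without rIL-31 replicate 3 and crosses for the fit with GC and length offsets. The intervals of Klk6, Klk10 and Klk11 exclude 0 before adjustment over genes, and Spink5 moves to -0.15 without rIL-31 replicate 3.

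Of the neighbours of the set in the cluster, Klk9 rose. It had 25.8, 27.6 and 25.7 CPM in rIL-31 skin, against 17.2, 15.3 and 18.3 CPM in saline skin, with the groups apart. Its log2 fold change was 0.64 (SE 0.13, FDR 0.0213), and 0.57 without saline replicate 2, where the FDR was 0.160. Klk9 lies between Klk10 and Klk8, and Klk6 lies between Klk7 and Klk5, so the cluster genes that rose were not adjacent. Klk12, between Klk13 and Klk11, had 1.48 ± 0.881 CPM in rIL-31 skin and 1.20 ± 0.454 CPM in saline skin (SD, n = 3 each; FDR 0.832).

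Levels were compared between genes per kb of annotated exon. In rIL-31 skin the order was Klk7 (301 ± 25.5 CPM per kb), Spink5 (132 ± 22.4), Klk10 (115 ± 22.4), Klk6 (46.7 ± 6.12), Klk5 (30.4 ± 2.37), Klk11 (21.8 ± 0.816), Klk8 (16.2 ± 2.77), St14 (16.1 ± 3.17), Klk13 (1.96 ± 0.395) and Klk14 (0.676 ± 0.0378), as mean and SD of 3 libraries. In saline skin it was Klk7 (283 ± 21.4 CPM per kb), Spink5 (132 ± 7.28), Klk10 (84.4 ± 11.6), Klk6 (27.8 ± 3.37), Klk5 (26.4 ± 1.97), Klk11 (17.3 ± 0.228), Klk8 (15.8 ± 1.92), St14 (14.9 ± 1.09), Klk13 (1.29 ± 0.0582) and Klk14 (0.536 ± 0.147).
The order of the genes was the same in both groups. In rIL-31 skin, the means of the neighbours Spink5 and Klk10, and of Klk8 and St14, differed by less than the larger of their SDs between libraries. Within each rIL-31 library Spink5 was above Klk10, while the order of Klk8 and St14 varied. In saline skin the means of Klk6 and Klk5, of Klk11 and Klk8, and of Klk8 and St14 also differed by less than the larger SD. Klk8 was above St14 within each saline library, while the order of the other pairs varied. With the longest transcript in place of all exons, St14 was at 34.6 CPM per kb in rIL-31 skin and 32.0 CPM per kb in saline skin. By these means it was above Klk5 in both groups and above Klk6 in saline skin. This order did not hold in every library. In replicate 3 of each group St14 was below Klk5, and in saline replicate 3 also below Klk6. In CPM not divided by exon length, Klk7 made up 63.2% of the sum of the 8 kallikreins in rIL-31 skin and 68.5% in saline skin.

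Since protease and inhibitor are made in the same upper layers, their levels were also set against each other within each library. The summed level of the 8 kallikreins was 4.63, 4.01 and 3.62 times that of Spink5 per kb in rIL-31 skin, against 3.45, 3.33 and 3.59 times in saline skin. The rIL-31 values were all higher, but replicate 3 exceeded the highest saline library by little. In rIL-31 skin the ratios ran in the order of the libraries' correlations with GC content, and in saline skin they did not. Spink5 had the lowest GC content of the set. With the offsets for GC content and length the log2 fold change was 0.14 for Spink5, against 0.024 for Klk7, 0.092 for Klk5 and 0.64 for Klk6. That of Spink5 was then above those of Klk7 and Klk5. The part of GC content in these ratios was not tested. For Klk6 the ratio to Spink5 was 0.407, 0.331 and 0.330 in rIL-31 skin, against 0.210, 0.192 and 0.228 in saline skin, with a clear gap. For Klk7 it was 2.75, 2.25 and 1.95 in rIL-31 skin, against 2.15, 2.06 and 2.22 in saline skin, and the groups overlapped.
Klk6 was about level with Klk5 in saline skin and above it in every rIL-31 library. The ratio of Klk6 to Klk5 per kb was 1.68, 1.35 and 1.58 in rIL-31 skin, against 1.08, 0.953 and 1.13 in saline skin. For St14 the ratio to Spint1, which encodes the matriptase inhibitor HAI-1, was 0.661, 0.807 and 0.506 in rIL-31 skin, against 0.614, 0.591 and 0.496 in saline skin, with overlap. These ratios are given as descriptions, with no test.

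Keratinocyte genes also moved with the treatment, in a fit where 4.51% of all genes rose and 3.73% fell. Of 10 basal keratinocyte markers, 6 rose and 4 did not pass, with a median log2 fold change of 0.61, and the list summed to 7924 to 11462 CPM in rIL-31 skin and 5604 to 6176 CPM in saline skin. The log2 fold change was above 0 for 8 of these 10 markers. It was below 0 for Trp63, at -0.18 (FDR 0.382), and Dst, at -0.16 (FDR 0.378). Of 24 granular layer and cornified markers, 4 rose, 2 fell and 18 did not pass, with a median of 0.28 and summed levels of 13619 to 16102 CPM in rIL-31 skin and 11386 to 12231 CPM in saline skin. Of these 24, 13 rose and 3 fell without rIL-31 replicate 3, where 12.3% of all genes rose and 11.8% fell. Of the 4 stress keratins, 3 rose, with a median of 1.45. Krt10, the keratin of suprabasal cells, was at 4560, 4935 and 3897 CPM in rIL-31 skin, against 2809, 2690 and 2694 CPM in saline skin, a log2 fold change of 0.71 (SE 0.11, FDR 0.00458).
Not all markers of the upper layers moved as Krt10 did. In the granular and cornified list Ivl, the involucrin gene, fell with a log2 fold change of -0.63 (FDR 0.0132), and Tgm3 at -0.36 (FDR 0.111), Casp14 at -0.035 (FDR 0.891) and Krt77 at 0.056 (FDR 0.835) did not pass. What follows therefore holds for Krt10 and Krt14 as denominators and was not computed against these other genes. Krt10 and Krt14 themselves rose, with log2 fold changes of 0.71 and 1.08, so a gene at an unchanged level also has a lower ratio to them. The share of all genes that lay below saline in these ratios was not computed. The log2 ratio to Krt10 was below every saline library in all 3 rIL-31 libraries for 6 of the 10 genes (Klk5, Klk7, Klk8, Klk11, Spink5 and St14). For Spink5 the difference between the group means of this log2 ratio was -0.71, for Klk7 -0.61 and for Klk5 -0.50. For Klk6 it was 0.045, with -5.50, -5.86 and -5.14 in rIL-31 skin, against -5.67, -5.64 and -5.33 in saline skin, and the groups overlapped. Relative to Krt14, the basal keratin, 7 of the 10 genes were below every saline library, and Klk6 differed by -0.30 with overlapping groups. The part of the keratinocyte share in the rise of Klk6 was not tested.

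**Figure D4:**
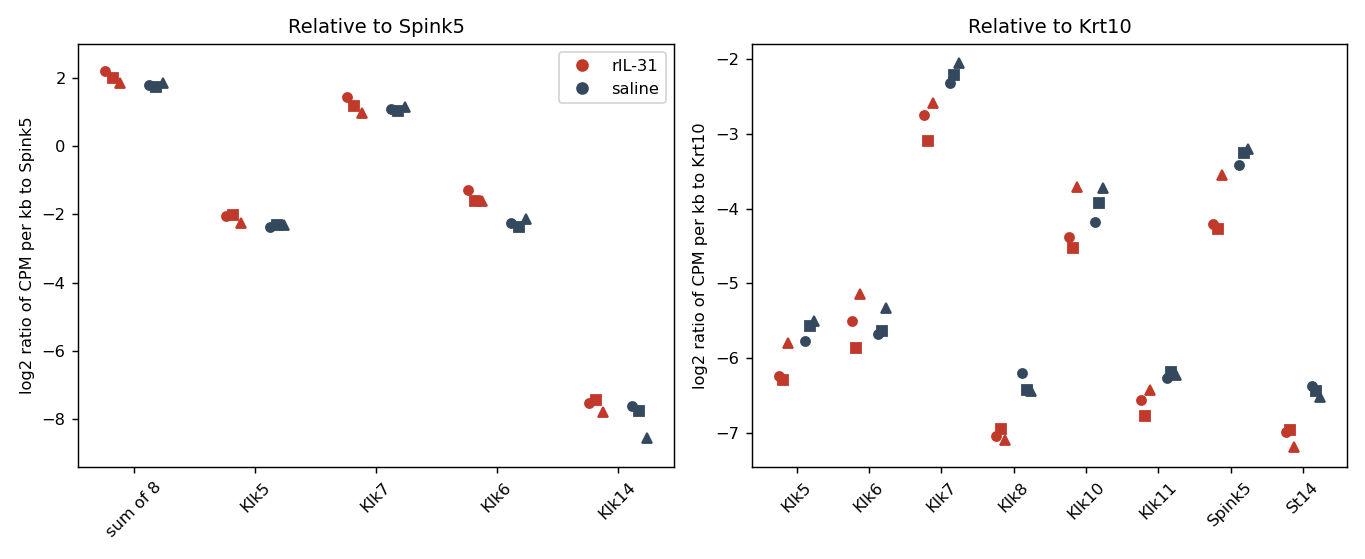
Log2 ratio of CPM per kb to Spink5 (left) and to Krt10 (right) in each library, with rIL-31 in red on the left and saline dark on the right of each gene; circles, squares and triangles are replicates 1, 2 and 3. Klk6 lies higher against Spink5 in every rIL-31 library, and overlaps between the groups against Krt10.

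Markers of other cells of skin were counted in the same way. The 8 fibroblast markers did not pass, with unadjusted p values of 0.0869 and above in edgeR's quasi-likelihood test and a median log2 fold change of 0.029. Of 16 hair follicle and shaft markers 1 rose and 2 fell, of 10 sebaceous gland markers 6 rose, of 16 leukocyte markers 6 rose and 1 fell, of 7 melanocyte markers 6 fell, and of 8 skeletal muscle markers 2 fell. Over all genes, 4.51% rose and 3.73% fell in this fit. Without rIL-31 replicate 3 the counts were 5 higher and 3 lower for hair follicle and shaft, 6 higher and 1 lower for sebaceous gland, 6 higher and 1 lower for leukocytes, 6 lower for melanocytes and 2 lower for skeletal muscle. Without that library, 12.3% of all genes rose and 11.8% fell. Salivary gland markers, set as a check because Klk1b genes are made there, summed to at most 24.2 CPM in any library.

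Among other epidermal protease inhibitors, 6 of 23 tested genes rose and 17 did not pass, with a median log2 fold change of 0.44. Of all genes, 4.51% rose and 3.73% fell. Serpina3n, a serpin of the acute-phase response, was at 417, 351 and 282 CPM in rIL-31 skin, against 91.1, 94.1 and 95.4 CPM in saline skin, a log2 fold change of 1.90 (SE 0.14, FDR 3.43e-05). Serping1, the C1 inhibitor, was at 0.61 (SE 0.12). Spink12, of the same Kazal-type inhibitor family as Spink5, was at 7.41, 5.35 and 11.3 CPM in rIL-31 skin, against 1.26, 1.78 and 1.68 CPM in saline skin. Its log2 fold change was 2.35 (SE 0.33, FDR 0.00267), with no overlap between the groups. The matriptase inhibitors Spint1, at -0.10 (FDR 0.646), and Spint2, at 0.25 (FDR 0.210), did not pass. Without rIL-31 replicate 3, 7 of the 23 inhibitors rose and 3 fell, beside 12.3% and 11.8% of all genes.
Among other epidermal proteases and activators, 2 of 16 rose and 14 did not pass, with a median log2 fold change of 0.073. The shares of all genes were 4.51% that rose and 3.73% that fell. Those that rose were the membrane serine protease gene Tmprss4, at 0.65 (SE 0.12, FDR 0.0135), and Plau, the urokinase gene, at 0.42 (SE 0.11, FDR 0.0615). Tmprss13 was at 0.30 (FDR 0.170) and Furin at 0.25 (FDR 0.221). Prss8, which encodes prostasin, the partner of matriptase, was at 32.1, 28.1 and 31.3 CPM in rIL-31 skin, against 28.4, 30.4 and 30.1 CPM in saline skin, and its log2 fold change was 0.041 (FDR 0.892). Without rIL-31 replicate 3, 5 of these 16 genes rose and 2 fell, beside the same 12.3% and 11.8% of all genes, and with any other library left out 1 rose.
In a list of kallikrein substrates and receptors with other junction, barrier and cytokine genes, 2 of 13 tested genes rose and 11 did not pass. Beside this, 4.51% of all genes rose and 3.73% fell. The median log2 fold change was -0.037. Cdsn, which encodes corneodesmosin, cut by Klk5 and Klk7 during shedding, was at 350, 325 and 323 CPM in rIL-31 skin, against 222, 228 and 242 CPM in saline skin. Its log2 fold change was 0.53 (SE 0.097, FDR 0.0121), with the groups well apart. Pkp1, the desmosomal plakophilin, was at 0.42 (SE 0.092, FDR 0.0289). The desmosomal cadherins Dsc1 and Dsg1b were at -0.37 (FDR 0.103) and -0.37 (FDR 0.106) and did not pass. With DESeq2, 2 genes of this list fell, beside 924 of all 16371 genes tested. F2rl1, the receptor PAR2 that Klk5 and Klk14 can activate, was at 0.19 (FDR 0.433). Without rIL-31 replicate 3, 2 of these 13 genes rose and 3 fell, beside 12.3% and 11.8% of all genes, and without saline replicate 2 none rose.

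By pattern over the 6 libraries, the genes nearest to Klk6 were Ptges, Adamts1, Magi2, Rgs1 and Lrrc4, of 15212 genes compared at a mean of at least 1 CPM. The measure was the root mean square difference of mean-centred log2 levels, which was 0.067 for Ptges, the prostaglandin E synthase gene, and 0.097 for Lrrc4. Of the 8 other genes of the set above that mean, Klk10 was nearest to Klk6 at 0.189 and Klk8 farthest at 0.466, and Klk14, under it, was not compared.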

How the data were processed

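Total RNA of skin was sequenced in 6 libraries, 3 rIL-31 and 3 saline. The deposited values are raw read counts for each gene, listed by the authors under Entrez numbers. Their processing notes name bcl2fastq, CASAVA 1.8, TopHat, DESeq and the build mm10, while no counting program or strand setting is named there or in the study's methods. Names and positions came from RefSeq GRCm38.p6, with 85 of 24061 numbers unmatched. Counts were fitted with edgeR 4.0.16 in R 4.3.3 (TMM, filterByExpr with a minimum count of 10, quasi-likelihood test, Benjamini-Hochberg adjustment over 16371 genes). The step was also run on simulated counts, which held no shift with GC content between libraries, and that outcome is not given here. DESeq2 1.42.0 and limma 3.58.1 gave alternatives. Confidence intervals are at 95% and use the fitted standard errors. Exon lengths came from GENCODE M21, mapped by Entrez number, in place of the RefSeq exons that had been planned. Mean-centred log2 levels used a pseudocount of 0.5 CPM, and the log2 ratios between genes used none.
The 10 genes and all lists were chosen with earlier results of these data known. Spint1, Spint2, Prss8, F2rl1, Krt10 and Krt14 were named for their known roles, and Tgm3, Casp14, Krt77, Trp63 and Dst after their values were seen. The other genes named from each list were up to 4 with the smallest p. A gene that this rule would name is not reported here. The lowest chi-square per degree of freedom between any pair of libraries was 8.68, so no pair was counted as 1 sample.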

Additional observations from a re-analysis of the deposited data

How the results depend on the processing

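Klk6 kept its direction and its call in all 16 alternative fits. Over all genes, 739 rose and 610 fell in the fit with all 6 libraries. These counts became 1029 and 924 with DESeq2, 981 and 896 with the exact test, and 855 and 488 with offsets for GC content and length. They were 188 and 114 with a 2-fold minimum, and 448 and 356 at an FDR below 0.05. With 1 library left out in turn they ranged from 246 to 2050 higher and from 171 to 1968 lower, the highest without rIL-31 replicate 3 and the lowest without saline replicate 2. Of the set, 2 genes rose with DESeq2, with the exact test and with either fit that used the replicate block, 0 passed the 2-fold minimum, and between 1 and 3 rose with 1 library left out.
The numbers 1 to 3 were not taken to pair the samples in the main fit. Same-numbered libraries correlated at 0.0708, -0.0153 and 0.188 in their deviations. Replicates 1 and 3 of the rIL-31 group correlated best with the saline library of the same number. Replicate 2 of that group correlated best with saline replicate 1. With so few pairs, the correlations cannot decide whether the numbers pair the samples, so fits with the replicate number as a block are also given. With the replicate number as a block, 1177 genes rose and 1096 fell, and Klk10 passed (0.44, FDR 0.0170). With the block and the offsets, 1237 rose and 769 fell.
Signs changed for genes close to 0. Klk8 was at -0.095 with the offsets and -0.097 with the offsets and the block, and between -0.10 and 0.15 with 1 library left out. Spink5 was at -0.0017 with DESeq2 and with the exact test, -0.0095 with limma-voom, -0.021 with upper-quartile normalization, -0.0038 without a filter and -0.0099 with the block, and between -0.15 and 0.079 with 1 library left out. St14 lay between -0.029 and 0.26 with 1 library left out. Klk9 was at 0.57 without saline replicate 2 and did not pass (FDR 0.160). The cause of these shifts was not tested. Klk14 had the fewest counts of the set, 10 to 23 per library, and the widest interval.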
